A study of Drosophila melanogaster with 20 samples.

Results

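The 10 genes inc, Cul3, wake, tara, CycA, cv-c, nur, homer, Nf1 and fabp, which set how long flies sleep or how they recover lost sleep, were followed in brains of Drosophila melanogaster kept on diets that differ in protein and carbohydrate. They are genes known from sleep studies, and they were listed with earlier results of these data known. Of these, 9 were in the male table and 10 in the female table, out of 12441 genes in either table and 11780 in both. The same 9 passed the filter on low values (10 or more in at least 5 libraries) in each sex. The exception was nur, which was not analysed here in males and had too few reads in females.

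The flies were wild type (W1118), 4 to 7 days old, and brain RNA was sequenced in 20 libraries, 5 for each of 4 groups. Male LPHC flies ate a low-protein, high-carbohydrate diet with protein to carbohydrate at 0:1 and 180 g/L, against 1:1 and 180 g/L in male HPLC flies, the high-protein, low-carbohydrate diet. Female LPHC flies received 1:2 at 360 g/L, against 1:1 at 90 g/L for female HPLC flies. Per the labels, the male LPHC diet gave the longest sleep and the male HPLC diet the shortest. If the g/L figures are protein plus carbohydrate, which the labels do not state, protein was 0 g/L in male LPHC and 90 g/L in male HPLC, but 120 g/L in female LPHC and 45 g/L in female HPLC. Sex and recipe therefore cannot be told apart. The labels give neither the number of brains in a library nor separate cultures, so the p-values measure the spread between libraries, which may be technical.

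Sleep in flies is set by the circadian clock, which times it, and by a homeostat, which tracks the need for it. Neurons of the dorsal fan-shaped body in the central brain promote sleep, and glia take part through metabolism and the uptake of transmitters. The genes followed here act at several of these points, as parts of a ubiquitin ligase, regulators of the cell cycle machinery reused in neurons, a regulator of Ras, a synaptic scaffold, a secreted peptide and a lipid carrier.

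Values are normalised read counts, that is, reads divided by 1 size factor per library, and depth ranged from 14715340 to 29523858 reads in male LPHC, 21733987 to 35077559 in male HPLC, 17029184 to 30077141 in female LPHC and 13901684 to 25106655 in female HPLC. Markers of brain tissue were present, with all 12 neuron and all 12 glia markers passing the filter in each sex. Photoreceptor markers held 8.30 to 10.04% of the summed values in male LPHC and 7.87 to 8.51% in male HPLC, and 5.004 to 6.42% in female LPHC and 3.14 to 4.90% in female HPLC, so RNA of photoreceptors was in the libraries. Yolk proteins, which fat body and ovary make, held 6.75 to 8.62% in female LPHC and 12.3 to 15.1% in female HPLC. Female HPLC libraries 2 and 5 stood apart in germline and egg genes, as given with CycA. In such bulk samples, fewer cells of a type and less RNA per cell cannot be told apart.

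In males, 3 of the 9 tested genes passed the threshold of 0.05 on the limma adjusted p (Benjamini-Hochberg over all genes tested). On LPHC, wake was higher and Cul3 and fabp were lower. Over all genes tested 57.2% passed, so 3 of 9 is no more than the background would give. The median log2 difference was 0.01 over the 9 genes and 0.02 over all genes, on the log2(normalised count + 1) scale. In females 0 of the 9 passed limma, where 31.5% of all genes tested did, while edgeR on whole reads called CycA, and DESeq2 called CycA and homer. An unadjusted limma p under 0.05 was seen for 3 of the 9 (inc, homer and CycA), and for 4094 of all 9932 genes tested. The female median was −0.11 over the 9 genes and −0.02 over all genes.

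**Figure D1:**
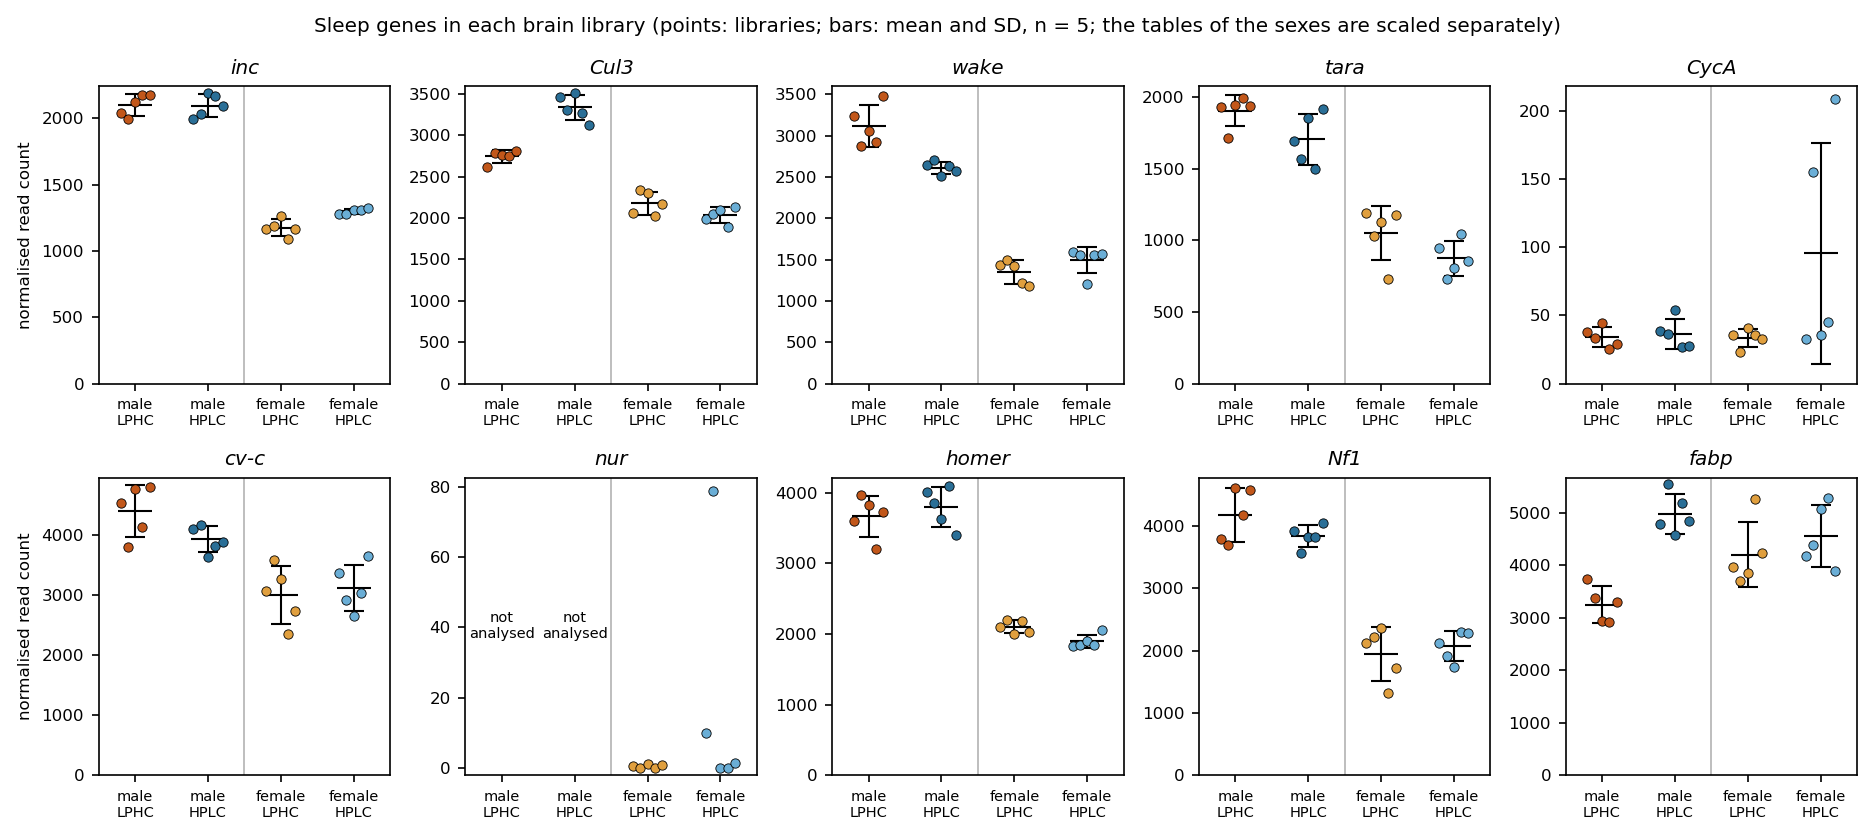
Normalised read count of each sleep gene in every brain library; points are libraries, bars the mean and SD of 5, and the axis of each panel has its own scale, with the tables of the sexes scaled separately. The male diets are apart for Cul3, wake and fabp, the female diets for inc, and CycA and nur stand high in single female HPLC libraries (155 and 209 for CycA, 78.7 for nur).

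**Figure D2:**
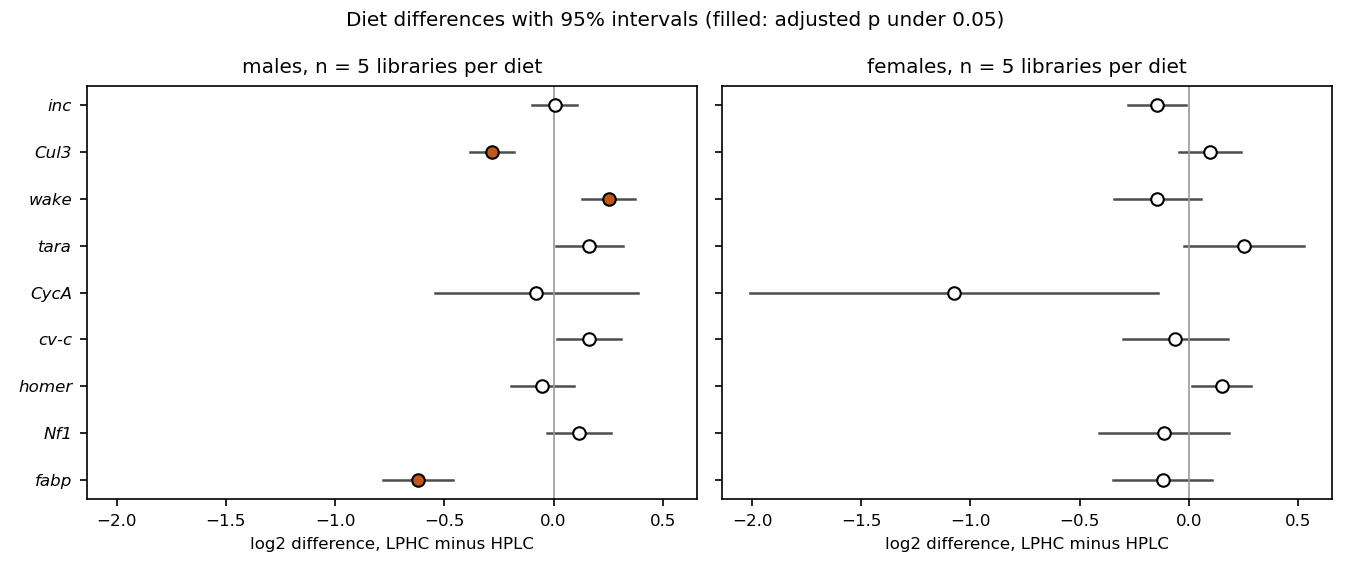
Log2 difference, LPHC minus HPLC, for the 9 tested genes with 95% intervals from limma, males on the left and females on the right, filled where the adjusted p is under 0.05. In males wake lies at 0.25, Cul3 at −0.28 and fabp at −0.62, and in females no gene is filled.

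Cul3 encodes the scaffold of a ubiquitin ligase, and inc (insomniac) encodes an adaptor that binds it. Loss of either in neurons shortens sleep. In male LPHC brains Cul3 had 2616, 2785, 2763, 2745 and 2817 normalised counts, against 3459, 3313, 3517, 3275 and 3129 in male HPLC brains. Every LPHC library was below every HPLC library. The means were 2745 ± 77.0 in male LPHC and 3339 ± 154 in male HPLC (SD, n = 5 each), a log2 difference of −0.28 (SE 0.047, limma adjusted p = 0.000155).

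In females Cul3 had 2063, 2339, 2304, 2029 and 2169 on LPHC, against 1995, 2056, 2100.3, 1898 and 2136 on HPLC. These groups overlapped, with LPHC the higher on average, at a log2 difference of 0.10 (95% interval −0.05 to 0.24, limma adjusted p = 0.293). With all libraries at the same total, Cul3 was called higher on LPHC in females (0.26, limma adjusted p = 0.00572). In males it was not called under that scaling (−0.03, limma adjusted p = 0.550). The diet difference in males minus that in females was −0.38 (SE 0.075, adjusted p = 0.000209 in a limma fit over both sexes), so the diet contrast of Cul3 differed between the sexes and their recipes. Under this test of the sexes, 3 of the 9 genes passed against a background of 52.3%, wake upward and Cul3 and fabp downward.

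The adaptor inc behaved otherwise. Male LPHC brains had 2043, 1993, 2125, 2177 and 2178 normalised counts of inc, against 1991, 2029.7, 2188, 2167 and 2096 in male HPLC brains. The groups lay over each other, with a log2 difference of 0.01 and a 95% interval from −0.10 to 0.11. Female LPHC brains had 1166, 1185, 1267, 1089 and 1167, against 1277, 1280.2, 1306, 1309 and 1322 in female HPLC brains. Here each LPHC library was below each HPLC library, and the HPLC libraries lay close together (1175 ± 63.4 in female LPHC and 1299 ± 19.6 in female HPLC). The log2 difference of −0.15 nevertheless missed the threshold (SE 0.063, limma adjusted p = 0.0907). Groups without overlap were seen for 3 of 9 sleep genes in males, where 42.7% of all genes tested had them, and for 1 of 9 in females, where 22.1% did.

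The level of adaptor relative to scaffold, taken within each library, does not depend on how the libraries are scaled. The log2 ratio of inc to Cul3 was −0.36, −0.48, −0.38, −0.33 and −0.37 in male LPHC, against −0.80, −0.71, −0.68, −0.60 and −0.58 in male HPLC. In females it was −0.82, −0.98, −0.86, −0.90 and −0.89 on LPHC, against −0.64, −0.68, −0.68, −0.54 and −0.69 on HPLC. The diets did not overlap in either sex, and the order was opposite: the LPHC libraries had the higher ratio in males and the lower one in females. How often ratios of other gene pairs part the diets was not tested, while 42.7% of single genes did so in males and 22.1% in females. As single genes, inc and Cul3 differed by 0.01 and −0.28 in males, and by −0.15 and 0.10 in females. The difference in the ratio was 0.29 in males and −0.24 in females. Each had p = 0.00794, the smallest that the exact 2-sided permutation test of 5 against 5 allows. The adjusted p of this test was 0.0238 for each, over 6 tests of ratios. The male minus female difference was 0.53. This difference between the sexes was noticed in the values and was not tested. The ranges of male HPLC and female HPLC brains overlapped, at −0.80 to −0.58 and −0.69 to −0.54. The annotation places part of CG14795, on the opposite strand, over 9.75% of the exon bases of inc, and whether the counting used strand is not given in the sources used here.

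**Figure D3:**
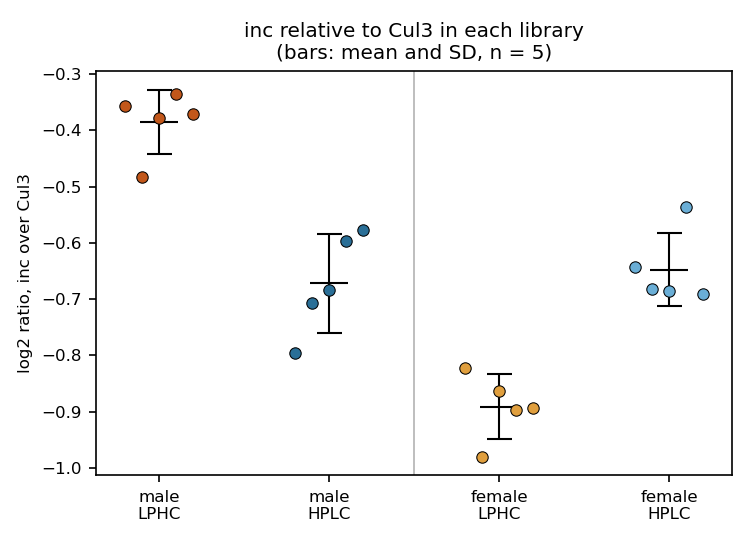
Log2 ratio of inc to Cul3 in each library, with the mean and SD of 5 as bars. Male LPHC lies above male HPLC (means −0.38 and −0.67), and female LPHC below female HPLC (means −0.89 and −0.65).

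The number of ligase genes called was near the background in males. Among 17 tested genes of the cullin-3 machinery and its adaptors, 0 were higher and 10 lower on LPHC in males, with a median log2 difference of −0.24. That is 58.8% of the list, against 57.2% of all genes tested. With all libraries set to the same total, 6 were higher and 4 lower and the median was 0.01, so the direction of the list depends on the scaling. Keap1, the adaptor that targets the oxidative stress factor CncC, had 741 ± 28.9 normalised counts in male LPHC and 1911 ± 261 in male HPLC, a log2 difference of −1.35 (limma adjusted p = 5.04e-09), and stayed lower under each scaling tried (−1.502 to −1.11). In females 1 was higher and 2 were lower, or 17.6% against 31.5% of all genes, with a median of 0.00. At the same total 6 were higher and 1 lower in females, with a median of 0.16. The actin-associated adaptor kel had 826 ± 89.9 in female LPHC and 1985 ± 167 in female HPLC (log2 difference −1.27, limma adjusted p = 4.33e-08), and it was also lower on LPHC in males (log2 difference −0.58, adjusted p = 1.08e-05).

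The gene wake (wide awake) carries timing from the clock to arousal neurons, where it raises the action of the GABA receptor Rdl, and its loss delays the onset of sleep. Male LPHC brains had 3238, 2879, 3057, 2925 and 3485 normalised counts, against 2639, 2702, 2511, 2628 and 2574 in male HPLC brains. The lowest LPHC library stood above the highest HPLC library, and the LPHC libraries varied more. The means were 3117 ± 249 in male LPHC and 2611 ± 71.8 in male HPLC, a log2 difference of 0.25 (SE 0.056, limma adjusted p = 0.00162).

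Female LPHC brains had 1435, 1495, 1421, 1214 and 1185 normalised counts of wake, against 1596, 1551, 1208, 1553 and 1562 in female HPLC brains. Female HPLC library 3 lay far below the other 4 of its group, and with it the groups overlapped (log2 difference −0.14, 95% interval −0.34 to 0.05, limma adjusted p = 0.262). Without that library the female difference was −0.22 (limma adjusted p = 0.0478). The male minus female difference was 0.40 (SE 0.111, limma adjusted p = 0.00487). The share of neuron markers in the summed values was 0.574 to 0.744% in male LPHC and 0.486 to 0.514% in male HPLC. Of these 12 markers 6 were higher and 1 lower, where 57.2% of all genes tested were called. Part of a higher share comes from the total, since the median gene moved up by 0.25 in males at the same total. Muscle markers were higher too, 12 of 13 of them, with a median log2 difference of 0.80 and a share of 0.598 to 0.761% in male LPHC and 0.317 to 0.396% in male HPLC (exact permutation adjusted p = 0.0159 over 14 shares). Their part in the result was not tested. When the libraries were scaled to the same neuron marker level, the male difference of wake was 0.11 (limma adjusted p = 0.287). The male minus female difference of wake was then 0.14 (limma adjusted p = 0.265). The part of neuron content in these results was not tested further.

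Of 9 tested genes for GABA receptors, synthesis and transport, 5 were higher and 2 lower on LPHC in males (median 0.28), while 0 were higher and 4 lower in females (median −0.27). The share called was 77.8% in males and 44.4% in females, against 57.2% and 31.5% of all genes. At the same neuron marker level 2 were higher and 2 lower in males and 1 lower in females, and at the same total 2 were lower in females. Lcch3, a GABA receptor subunit, had 1575 ± 25.5 normalised counts in male LPHC and 1132 ± 96.97 in male HPLC (log2 difference 0.48, limma adjusted p = 9.60e-06). The GABA transporter Gat had 297 ± 28.3 in female LPHC and 453 ± 88.5 in female HPLC (log2 difference −0.59, limma adjusted p = 0.00131). Grd, a further receptor subunit, fell on LPHC in both sexes, by 1.10 in males and by 0.85 in females on the log2 scale (limma adjusted p = 1.02e-07 in males and 2.88e-05 in females).

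The protein Taranis, from tara, acts with Cyclin A, from CycA, to promote sleep in a small group of neurons, outside the usual role of the cyclin in dividing cells. For tara, male LPHC brains had 1936, 1718, 1946, 1996 and 1941 normalised counts, against 1698, 1567, 1857, 1498 and 1916 in male HPLC brains. Library 2 lay below the other LPHC libraries, inside the HPLC range, and HPLC libraries 3 and 5 lay within the LPHC range. The log2 difference was 0.16 (SE 0.071, limma adjusted p = 0.0634). It passed with edgeR (0.19), and without male LPHC library 2, male HPLC library 3 or male HPLC library 5, at 0.20, 0.20 and 0.21.

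In females tara had 1191, 1032, 1129, 734 and 1177 normalised counts on LPHC, against 945, 729, 808, 1045 and 859 on HPLC. Female LPHC library 4 was low and lay beside the lowest HPLC library. The log2 difference was 0.25 (95% interval −0.02 to 0.53, limma adjusted p = 0.155), and without that library it was 0.38 (limma adjusted p = 0.00892). Female LPHC library 4 was the lowest of its group in 5 of the 9 tested genes, as was male LPHC library 2 in males.

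CycA was scarce. In males the LPHC brains had 37.9, 33.5, 44.1, 25.6 and 29.1 normalised counts, against 38.4, 36.2, 53.8, 26.8 and 27.4 in male HPLC brains, and the groups overlapped throughout (log2 difference −0.08, 95% interval −0.54 to 0.39). Female LPHC brains had 35.3, 23.1, 40.5, 35.2 and 32.9, from 31 to 53 reads, against 32.9, 155, 35.7, 44.8 and 209 in female HPLC brains, from 20 to 161 reads. The female HPLC mean rested on libraries 2 and 5, and the other 3 lay among or near the LPHC libraries. The log2 difference was −1.08 (SE 0.438, 95% interval −2.01 to −0.14, limma adjusted p = 0.0749). Without libraries 2 and 5 it was −0.18 (limma adjusted p = 0.6003), and it passed with DESeq2 (−1.51) and without female HPLC library 1 (−1.35) or 3 (−1.32).

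Female HPLC libraries 2 and 5 also held the highest values of 12 germline and egg genes, a list put together after the values of the libraries were seen and not tested. Their summed level was 91.2 to 176 in female LPHC, against 1323 in HPLC library 2, 1803 in HPLC library 5 and 60.8 to 231 in the other female HPLC libraries. Cyclin B (CycB), a further mitotic cyclin, had 71.9, 20.1, 29.4, 18.4 and 21.9 in female LPHC, against 6.57, 301, 49.3, 73.0 and 421 in female HPLC, with the same libraries high. The part of these genes in the CycA values was not tested beyond leaving the libraries out.

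**Figure D4:**
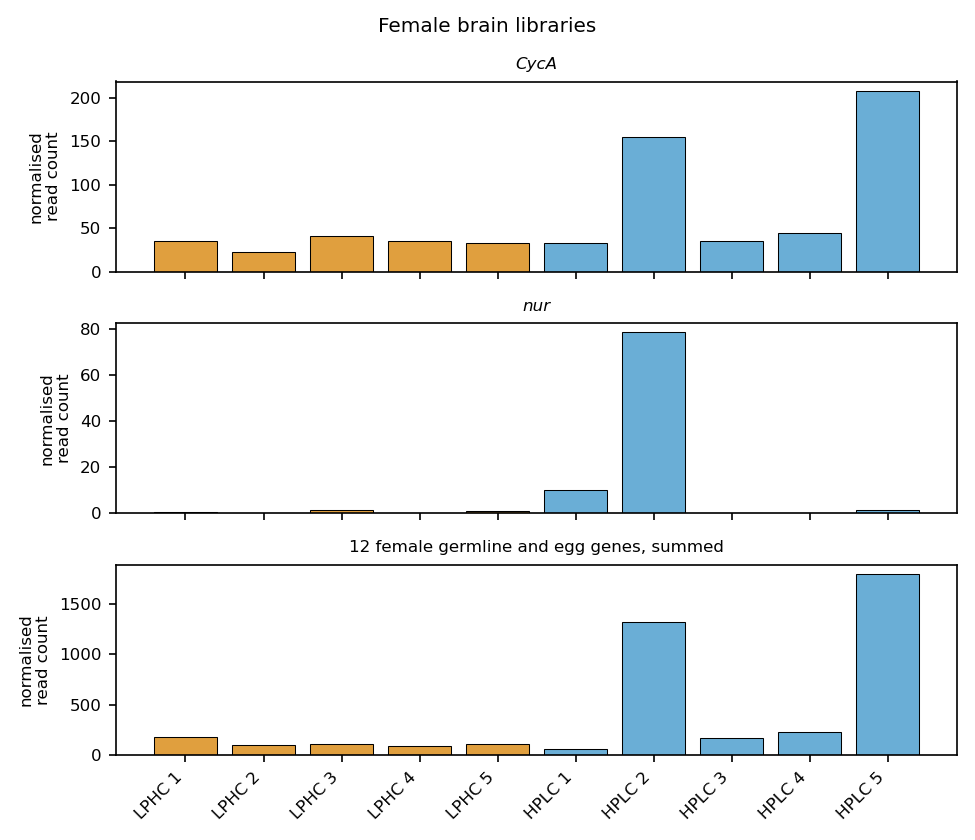
Normalised read counts in the 10 female brain libraries of CycA, of nur and of 12 germline and egg genes summed, with LPHC libraries on the left and HPLC libraries on the right, each bar 1 library. CycA is high in HPLC libraries 2 and 5 (155 and 209), as are the summed germline genes (1323 and 1803), while nur is high in HPLC library 2 alone (78.7).

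The log2 ratio of tara to CycA was 5.79 ± 0.323 in male LPHC and 5.55 ± 0.378 in male HPLC, and 4.94 ± 0.406 in female LPHC and 3.61 ± 1.36 in female HPLC (SD, n = 5 each). Neither difference passed, at 0.24 in males and 1.33 in females (exact permutation adjusted p = 0.352 in males and 0.0833 in females). Without female HPLC library 1 the female difference was 1.63 and passed (exact permutation adjusted p = 0.0476). Of 16 tested cell cycle genes that work with cyclin A, 5 were higher and 4 lower on LPHC in males, or 9 and 0 at the same total, and 3 higher and 3 lower in females. These shares, 56.3% in males and 37.5% in females, were near those of all genes (57.2% and 31.5%). The cyclin inhibitor rux had 448 ± 44.7 in male LPHC and 317 ± 29.5 in male HPLC (log2 difference 0.50, limma adjusted p = 0.000246). Cdk4, a kinase of the entry into the cell cycle, had 303 ± 23.9 in female LPHC and 204 ± 17.96 in female HPLC (log2 difference 0.57, limma adjusted p = 0.000182).

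Sleep-promoting neurons of the dorsal fan-shaped body need the gene cv-c to raise their excitability after sleep loss. For cv-c, male LPHC brains had 4522, 3785, 4749.5, 4124 and 4788 normalised counts, against 4099.8, 4165, 3634, 3816 and 3878 in male HPLC brains. LPHC was higher on average, but its libraries 2 and 4 lay within the HPLC range, and the log2 difference of 0.16 missed the threshold (SE 0.068, limma adjusted p = 0.0575). It passed with edgeR (0.19) and DESeq2 (0.17), and without male LPHC library 2 (0.21) or 4 (0.18). In females the LPHC brains had 3064, 3581, 3268, 2344 and 2731, against 3354, 2905, 2648, 3023 and 3637 in female HPLC brains, with full overlap (log2 difference −0.06, 95% interval −0.30 to 0.18).

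Homer, from homer, is a scaffold of the postsynapse that binds metabotropic glutamate receptors, and flies without it do not keep long sleep bouts. Male LPHC brains had 3599.7, 3978, 3825, 3213 and 3729 normalised counts, against 4010.5, 3859.8, 3628, 4104 and 3401 in male HPLC brains, with full overlap. The log2 difference was −0.05 as deposited, but 0.20 with all libraries at the same total (limma adjusted p = 0.0155), where it passed in the other direction. In females the counts were 2106, 2201, 2005, 2181 and 2028 in LPHC brains, against 1829, 1839, 1905, 1849 and 2050.4 in HPLC brains. Only HPLC library 5 reached into the LPHC range, and the log2 difference of 0.15 missed the threshold (SE 0.063, limma adjusted p = 0.0827). Of 15 tested postsynaptic partners and glutamate receptors, 10 were higher and 1 lower on LPHC in males (median 0.26), and 1 was higher and 3 were lower in females (median −0.20). The share called was 73.3% in males and 26.7% in females, against 57.2% and 31.5% of all genes. At the same neuron marker level 2 were higher and 3 lower in males, and in females 0 were lower there or at the same total. The adhesion protein Nlg1 had 651 ± 62.6 in male LPHC and 338 ± 31.3 in male HPLC (log2 difference 0.94, limma adjusted p = 3.76e-07), and the receptor-binding protein Grip had 1137 ± 160 in female LPHC and 504 ± 73.8 in female HPLC (log2 difference 1.18, limma adjusted p = 1.58e-06).

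Nf1 encodes neurofibromin, which switches off Ras and supports cAMP signalling, and its loss disturbs sleep and daily rhythms of activity. Male LPHC brains had 3797, 3692, 4619.5, 4184 and 4592 normalised counts, against 3923, 3570.02, 3823, 3831 and 4055 in male HPLC brains. Of the LPHC libraries, 3 stood above all HPLC libraries and the other 2 lay within their range, at a log2 difference of 0.12 (95% interval −0.03 to 0.26, limma adjusted p = 0.162). Without male LPHC library 2 it was 0.16 and passed (limma adjusted p = 0.0457). In females the LPHC brains had 2117, 2227, 2367, 1315 and 1716, against 2126, 1916, 1736, 2305 and 2289.99 in female HPLC brains. LPHC library 4 was again the lowest, and the groups overlapped (log2 difference −0.11, 95% interval −0.41 to 0.18).

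Of 21 tested genes of Ras, MAP kinase and cAMP signalling, 11 were higher and 4 lower on LPHC in males (median 0.14), and 1 was higher and 5 were lower in females (median −0.15). The share called was 71.4% in males and 28.6% in females, against 57.2% and 31.5% of all genes. At the same neuron marker level the male counts were 5 and 5, and at the same total the female counts were 3 higher and 2 lower. The receptor Egfr had 2221 ± 211 in male LPHC and 4189 ± 346 in male HPLC (log2 difference −0.92, limma adjusted p = 7.92e-08), while its ligand spi had 5264 ± 470 in male LPHC and 3542 ± 243 in male HPLC (log2 difference 0.57, limma adjusted p = 6.25e-06). Both act on sleep in flies. Pka-C1, the catalytic subunit of the cAMP-dependent kinase, had 4597 ± 508 in female LPHC and 7233 ± 638 in female HPLC (log2 difference −0.66, limma adjusted p = 4.48e-05).

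Nemuri, from nur, is a secreted antimicrobial peptide that deepens sleep during infection and after sleep loss. It was not analysed here in males. Female LPHC brains had 1, 0, 1, 0 and 1 reads, against 6, 70, 0, 0 and 1 reads in female HPLC brains. HPLC library 2 held nearly all of them, at 78.7 normalised counts, and HPLC library 1 the next most, at 9.86. With 3 reads in all LPHC libraries, no fold change is given. HPLC library 2 and, below it, HPLC library 1 were also the highest in 4 Osiris genes, a list likewise chosen after the values were seen, at 264 and 69.0 summed normalised counts, against 5.33 to 17.9 in female LPHC and down to 4.40 in the rest of female HPLC.

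Of 10 classical antimicrobial peptides tested in males, 0 were higher and 9 lower on LPHC, with a median log2 difference of −2.84, where 57.2% of all genes were called. Fat body markers, of a tissue that makes these peptides, were lower in the same libraries, 7 of 7 with a median of −2.55, and their part was not tested. AttA, an attacin, had 188 ± 123 in male LPHC and 2746 ± 1354 in male HPLC (log2 difference −3.92, limma adjusted p = 2.28e-07). Of 13 tested in females, 3 were higher and 2 lower, or 38.5% against 31.5% of all genes. The antifungal Drs had 895 ± 437 in female LPHC and 176 ± 34.2 in female HPLC (log2 difference 2.22, limma adjusted p = 8.36e-06).

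The fatty acid binding protein gene fabp carries lipids inside cells, is high in glia, and alters sleep when its level is raised. Male LPHC brains had 3743, 3364, 2929, 2911 and 3293 normalised counts, against 4781, 5536, 4567, 5181 and 4839.8 in male HPLC brains. All LPHC libraries were below all HPLC libraries, and the difference was the largest in size among the 9 genes in males. The means were 3248 ± 345 in male LPHC and 4981 ± 381 in male HPLC, a log2 difference of −0.62 (SE 0.074, limma adjusted p = 7.23e-06), or 0.651 of the HPLC level.

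Female LPHC brains had 3972, 3690.4, 3845, 5256 and 4227 normalised counts of fabp, against 4169, 4388, 5062, 5276 and 3892 in female HPLC brains. The groups overlapped, with LPHC library 4 near the top of both (log2 difference −0.12, 95% interval −0.35 to 0.11, limma adjusted p = 0.419). The male minus female difference was −0.50 (SE 0.137, limma adjusted p = 0.00410).

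Glia markers moved with fabp in males. All 12 were lower on male LPHC, with a median log2 difference of −0.60, where 57.2% of all genes tested were called. At the same total 7 were lower and 0 higher, with a median of −0.35, where 73.9% of all genes tested were called. At the same upper quartile 10 were lower. The share of all 12 glia markers in summed values was 0.147 to 0.163% in male LPHC and 0.231 to 0.259% in male HPLC (exact permutation adjusted p = 0.0159 over 14 shares). Relative to the mean log2 level of these markers, fabp was 1.55 ± 0.196 in male LPHC and 1.46 ± 0.291 in male HPLC, a log2 difference of 0.09 (exact permutation p = 0.627), and the groups overlapped. In females the glia share was 0.265 to 0.294% in LPHC and 0.216 to 0.238% in HPLC. The female glia markers did not move together: 6 of 12 were higher and 3 lower on LPHC, where 31.5% of all genes tested were called. In females fabp relative to the markers was 1.81 ± 0.188 in LPHC and 2.05 ± 0.0907 in HPLC (difference −0.25, exact permutation p = 0.0317, adjusted p = 0.0635 over 6 tests). Without female LPHC library 4 this difference was −0.32 and passed (exact permutation adjusted p = 0.0159).

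Fat body markers were lower as well on male LPHC, in 7 of 7 tested, at 0.171 to 0.296% of summed values in male LPHC and 0.851 to 0.936% in male HPLC, and their part in the fabp result was not tested. The gene sea, on the same strand, overlaps 72.1% of the exon bases of fabp in the annotation, and how the authors counted shared reads is not given in the sources used here. As listed, sea was low, at 11.8 ± 6.62 in male LPHC and 19.6 ± 5.48 in male HPLC, and 22.3 ± 5.33 in female LPHC and 9.62 ± 2.22 in female HPLC.

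Of 14 tested lipid carriers and fatty acid uptake genes, 1 was higher and 12 were lower on LPHC in males (median −0.56), and 3 were higher and 6 lower in females, though the median there was 0.03. The share called was 92.9% in males and 64.3% in females, against 57.2% and 31.5% of all genes. At the same total 8 were lower in males, and at the same neuron marker level 2 were higher and 1 lower in females. The lipase gene bmm had 2885 ± 267 in male LPHC and 10267 ± 1001 in male HPLC (log2 difference −1.83, limma adjusted p = 9.19e-11). Acbp2, an acyl-CoA binding protein, had 529 ± 103 in male LPHC and 2918 ± 175 in male HPLC (log2 difference −2.48, limma adjusted p = 1.16e-10). In females the lipid droplet protein Lsd-1 had 18344 ± 699 in LPHC and 11765 ± 1381 in HPLC (log2 difference 0.65, limma adjusted p = 3.03e-05).

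The scaling of the libraries bears on all of these differences in males. With all libraries at the same total, the median gene moved by 0.25 on the log2 scale in males and by 0.16 in females, and at the same upper quartile by 0.17 in males. At the same total, inc (0.26), wake (0.50), tara (0.41), cv-c (0.41), homer (0.20) and Nf1 (0.37) were called higher on male LPHC, Cul3 was no longer called (−0.03, limma adjusted p = 0.550), and fabp stayed lower (−0.37). Under that scaling 73.9% of all genes tested were called in males, with 5610 of 10115 higher and 1861 lower. At the same neuron marker level, Cul3 (−0.43) and fabp (−0.77) were called lower and no sleep gene higher, where 881 of all genes tested were higher and 3387 lower. The fall of fabp was thus called under each of the 4 scalings, that of Cul3 under 3 of them, and the rise of wake under 3. In females at the same total, Cul3 (0.26), homer (0.31) and tara (0.42) were called higher on LPHC. There 3190 of all 9932 genes tested were higher and 729 lower.

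**Figure D5:**
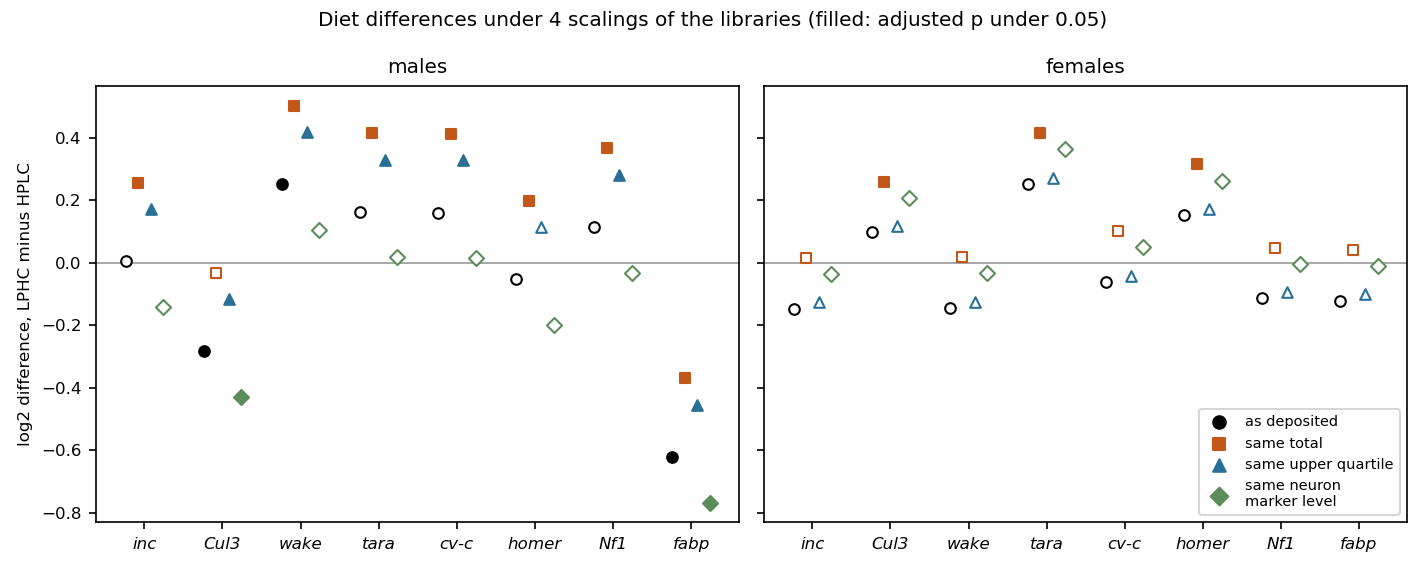
Log2 difference, LPHC minus HPLC, of 8 sleep genes (CycA left out for its wide interval) under 4 scalings of the libraries, males on the left and females on the right, filled where the limma adjusted p is under 0.05. In males fabp lies below 0 under each (−0.77 to −0.37), while homer lies at −0.05 as deposited and 0.20 at the same total.

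Levels of different genes were compared as RPM (reads scaled to a common library total) per kilobase of exon. In male LPHC brains fabp (64.4) and homer (54.6) were the most abundant, followed by Cul3 (23.2), cv-c (20.5), inc (20.5), Nf1 (18.9), tara (17.9) and wake (14.8), with CycA at 0.532. In male HPLC brains fabp was at 83.0, homer at 47.5 and CycA at 0.479. In females fabp was at 88.6 on LPHC and 86.0 on HPLC, and homer at 33.4 on LPHC and 26.8 on HPLC.

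By RPM, the order of the groups was male LPHC, male HPLC, female LPHC and female HPLC for inc, wake, tara, cv-c, homer and Nf1. For inc this was 95.9 ± 4.39, 80.3 ± 3.39, 57.1 ± 3.10 and 56.4 ± 2.33 in that order, and the female groups overlapped. Overlap of neighbours was also seen between the female groups for wake, tara, cv-c and Nf1, between male HPLC and female LPHC for tara and cv-c, and between the male groups for homer. Cul3 had its highest mean in male HPLC, which overlapped male LPHC. For fabp the order was female LPHC, female HPLC, male HPLC and male LPHC, and the first 3 overlapped from one to the next. The libraries of the sexes were scaled separately and differ in yolk protein content, and no test was made of levels across the sexes.

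Over the 20 libraries, the genes whose values ran closest to Cul3 were Cdk12 and Sulf1, with root mean square log2 differences of 0.063 and 0.064 after each was centred on the mean of its table, where Cul3 itself varied by 0.12. The closest to wake were CG16791 (0.056) and CG30089 (0.059), and to fabp rdhB (0.092) and GstO2 (0.10), out of 9765 genes compared. These are descriptions over libraries that share diets and depth.

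Of 39 other tested sleep genes, 21 were higher and 4 lower on LPHC in males, with a median log2 difference of 0.22, and 1 was higher and 4 were lower in females, with a median of −0.15. The share called was 64.1% in males and 12.8% in females, against 57.2% and 31.5% of all genes. At the same neuron marker level the male counts were 9 higher and 5 lower, and at the same total the female median was 0.02. Dh31, a neuropeptide that acts on waking, had 6017 ± 639 in male LPHC and 3519.9 ± 318 in male HPLC (log2 difference 0.77, limma adjusted p = 1.49e-06). Hsc70-3, the chaperone BiP of the endoplasmic reticulum, had 14920.1 ± 1852 in female LPHC and 8505 ± 1318 in female HPLC (log2 difference 0.81, limma adjusted p = 4.10e-05). SIFa, a neuropeptide of the pars intercerebralis that promotes sleep, had 150 ± 24.1 in female LPHC and 294 ± 61.0 in female HPLC (log2 difference −0.96, limma adjusted p = 0.000112).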

How the data were processed

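RNA from fly brains was sequenced in 20 libraries, 5 in each of 4 groups of sex and diet, grouped by GEO's labels. Brains were flash frozen and RNA was taken up in Trizol, per the labels' protocols, and HISAT2 was the aligner, per the submitters' processing notes. No coordinates are printed because genome build, annotation, counter and strandedness are not stated in any source used here. What the authors deposited is signal: gene counts divided by size factors, in a male and a female table that were scaled apart. All values (100%, tolerance 0.01) were whole multiples of what 1 read was worth in its library, so whole reads were recovered. No column of per-sample values was left unused (0). Replicates differed by more than sampling noise in every pair (chi-square per degree of freedom 7.55 or more).

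LPHC was compared with HPLC within each sex with limma (3.58.1, R 4.3.3) and an intensity trend on log2(value + 1), 2-sided, keeping genes that reached 10 in 5 or more libraries and adjusting over all of them (Benjamini-Hochberg, threshold 0.05). On this scale, changes of low genes come out too small. Sexes were compared in 1 limma fit of the male minus the female difference. Ratios within a library and marker shares were tested with exact permutations. Alternatives were other pseudocounts (0.5 and 8), filters and scalings, robust moderation, the replicate block, leaving out libraries singly, and the count tests of edgeR (4.0.16) and DESeq2 (1.42.0) on the whole reads. For males edgeR called 5909 genes and DESeq2 5849, and for females 3113 with edgeR and 3305 with DESeq2. Of these fits, only the main limma fit within each sex was also run on simulated reads, and its outcome is not given here. Levels per kilobase used exon lengths of an Ensembl annotation. Python 3.11.15, pandas 2.3.3 and SciPy 1.17.1 did the rest.

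The sleep genes and the 9 gene lists were chosen with earlier results of these data known, and 1 of the lists is not reported here. Named are all 10 sleep genes, up to 2 genes of each list with the smallest p in each sex past the threshold (part of them in the text), and the 2 genes closest to each called sleep gene over the libraries. CycB and sea were added after their values were seen. CG14795, named for its overlap with inc, had no values under that name in the male or the female table. The fits without female HPLC libraries 2 and 5, and the germline and Osiris lists were also added after seeing the data.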

Additional observations from a re-analysis of the deposited data

Results flagged for a closer look

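Single libraries stood apart in 3 of 38 groups of 5 looked at, where the gap to the nearest library exceeded 0.71 of the group's range, and chance gives about 1 in 20. They were tara in male LPHC library 2 (1718 normalised counts), wake in female HPLC library 3 (1208) and nur in female HPLC library 2 (78.7).

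Diet differences that differed between males and females were those of Cul3 (male minus female −0.38), wake (0.40) and fabp (−0.50) in limma. At the same neuron marker level that of wake was 0.14 and no longer passed. The log2 ratio of inc to Cul3 was higher in every LPHC library than in every HPLC library in males and lower in females (male minus female 0.53), and this difference was not tested. The recipes differed between the sexes, so sex and recipe cannot be told apart.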

How the results depend on the processing

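Over all alternatives, the call of a single sleep gene was kept in 168 of 188 fits in males and 187 of 197 in females. Between the sexes it was kept in 265 of 278, and the cause of the changes was not tested. Differences that were not called could change sign in these fits. For inc in males the difference was 0.01 as deposited and −0.14 at the same neuron marker level. Scaling mattered most. In males, where 1 gene was called higher and 2 lower, 6 were higher and 1 lower at the same total, 5 were higher at the same upper quartile and 0 at the same neuron marker level, and edgeR called 3 higher and DESeq2 2. The difference of homer in males turned to 0.20 at the same total. In females, where 0 were called either way, 3 were higher at the same total and 1 with DESeq2, and 1 was lower with edgeR and 1 with DESeq2. Between the sexes, where 1 was called higher, 2 were at the same total, 3 at the same upper quartile, 0 at the same neuron marker level and 3 with edgeR.

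Of all genes called, the share higher on LPHC in males was 48.3% as deposited, 75.1% at the same total, 68.7% at the same upper quartile and 20.6% at the same neuron marker level. In females it was 53.0% as deposited, 81.4% with equal totals and 74.9% with equal neuron markers.

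With each library left out in turn, 1 to 4 genes were higher and 2 lower in males, 0 to 1 higher and 0 to 2 lower in females, and 1 to 2 higher and 2 to 3 lower between the sexes. Of all genes tested, 52.5 to 57.8% were then called in males, 26.7 to 33.8% in females and 49.2 to 54.2% between the sexes. The male calls of Cul3, wake and fabp held each time. Between the sexes, inc passed without male LPHC library 2 (0.17) or female LPHC library 3 (0.18), homer without male LPHC library 2 (−0.23), male HPLC library 5 (−0.24) or female HPLC library 5 (−0.23), and CycA without female HPLC library 1 (1.27). In females the difference in the log2 ratio ranged from −0.32 to −0.18 for fabp over glia markers and from 0.94 to 1.63 for tara over CycA. Each passed once, without female LPHC library 4 for fabp and without female HPLC library 1 for tara. The LPHC minus HPLC difference in the female fat body share was −0.308 percentage points with all libraries (exact permutation adjusted p = 0.0494). With 1 library left out it ranged from −0.384 to −0.253 percentage points, and it passed in 2 of these fits and not in 8. The LPHC minus HPLC difference in the male yolk share ranged from −0.0261 to 0.00170 percentage points. The last was without male HPLC library 4, where the direction turned and it passed (exact permutation adjusted p = 0.0159).

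Replicate numbers did not pair the libraries: correlations of same-numbered libraries were −0.228 to 0.0478, and 0 of them were the best match. With the replicate block, no call of a single sleep gene changed, and the ratio of inc to Cul3 kept its differences of 0.29 in males and −0.24 in females, but within 5 pairs the smallest exact p is 0.0625, so none could pass. Without female HPLC libraries 2 and 5, the female ratio difference of inc to Cul3 was −0.27 (exact permutation adjusted p = 0.0536). The diets still did not overlap, so with 3 HPLC libraries the unadjusted p was the smallest that the test allows. A weaker result cannot be read from this adjusted p. Depth limits nur and CycA, and intervals cover libraries as sequenced.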
